A study of Mus musculus with 3 samples.

Results

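The tumour necrosis factor (TNF) superfamily was examined in RNA from cells sorted out of mouse lung, as the 43 protein-coding genes of the deposited table, of 48709 genes in all, whose symbols begin with Tnfsf or Tnfrsf or equal 1 of 11 older names of the family, such as Tnf, Ltb, Cd27 or Fas. Of these, 25 encode receptors and 18 encode ligands. The 3 libraries form 1 group, WT, labelled as lung smooth muscle cells. The mice carried the transgenes smooth muscle actin creERT2, a Cre recombinase that tamoxifen activates in cells using that promoter, and tdTomato, a red fluorescent protein. Tamoxifen was injected daily at 75 mg/kg for 10 days from 8 weeks of age, and the lungs were taken 2 months later, digested and sorted. Neither the gate of the sort nor the number of mice behind a library is stated in the labels, so the spread between libraries may be technical in part. There was no second group, and levels and their variation are therefore described within WT.

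TNF superfamily ligands are mostly membrane-anchored proteins that act as trimers, and some are shed from the cell surface. Their receptors carry cysteine-rich repeats outside the cell. Inside the cell they recruit TRAF adaptors, which lead to NF-kappaB and stress kinases, or, where they have a death domain, adaptors that lead to caspases. Lymphocytes use many members for costimulation, survival and killing, while TNF and lymphotoxin also act on stromal, endothelial and epithelial cells.

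Library totals were 18896263, 18355813 and 16877297 counts for WT libraries 1, 2 and 3, and a count of 0 leaves room for up to 3 counts, or 0.159 to 0.178 counts per 1000000 counts of the library (CPM), for counting error only. Nuclear protein-coding genes took 56.9%, 58.8% and 63.0% of these totals in libraries 1, 2 and 3, and microRNA genes 15.1%, 12.9% and 8.36%. CPM of protein-coding genes is thus shifted down in library 1 against library 3, and the printed CPM are not adjusted for it. The label was checked against marker genes. Smooth muscle markers were present but low, with 9 of 10 at a mean of at least 1 CPM, a summed level of 141 to 188 CPM and calponin, Cnn1, at 0 in library 1. The 10 T cell markers summed to 792 to 1093 CPM and the 10 B cell markers to 1170 to 2192 CPM, with all 10 of each list at 10 CPM or more. Markers of natural killer (NK) cells, myeloid cells, endothelium, fibroblasts and epithelium were also present, and none of these lists had a marker at 0 in any library. The libraries thus go against their label in part, and are called sorted lung cells here. In such bulk RNA, fewer cells of a type and less RNA per cell cannot be told apart.

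The genes for lymphotoxin beta, TNF and lymphotoxin alpha (Ltb, Tnf and Lta) lie side by side on chromosome 17, from 35194439 to 35205351 in the deposited coordinates, within 10913 bases, yet they differed widely in level. Their promoter windows are shown because the genes are neighbours of unequal level; they run from 250 bases before to 50 after the start, as RefSeq gives them on GRCm38.p6. Ltb is read from the plus strand (chr17:35194257-35194556), and Tnf (chr17:35201958-35202257) and Lta (chr17:35205302-35205601) from the minus strand. Capitals mark a match to the NF-kappaB consensus on either strand, or TATAAA on the gene's strand.
Ltb: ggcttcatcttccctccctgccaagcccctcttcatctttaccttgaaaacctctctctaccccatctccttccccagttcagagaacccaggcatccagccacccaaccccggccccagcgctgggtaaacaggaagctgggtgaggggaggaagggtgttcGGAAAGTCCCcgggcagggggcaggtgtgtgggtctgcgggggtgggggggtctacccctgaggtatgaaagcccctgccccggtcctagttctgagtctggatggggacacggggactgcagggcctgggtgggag
Tnf: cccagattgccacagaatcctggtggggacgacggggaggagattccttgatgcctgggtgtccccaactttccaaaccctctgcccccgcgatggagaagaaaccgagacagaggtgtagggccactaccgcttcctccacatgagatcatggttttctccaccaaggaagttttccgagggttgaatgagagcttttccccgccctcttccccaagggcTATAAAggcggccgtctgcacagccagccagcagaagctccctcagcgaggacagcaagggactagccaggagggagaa
Lta: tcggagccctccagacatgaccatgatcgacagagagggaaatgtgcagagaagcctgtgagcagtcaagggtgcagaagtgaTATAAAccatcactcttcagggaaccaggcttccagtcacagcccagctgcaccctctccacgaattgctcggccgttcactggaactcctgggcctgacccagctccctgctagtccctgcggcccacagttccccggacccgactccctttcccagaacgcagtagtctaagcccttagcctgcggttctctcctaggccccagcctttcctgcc

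The match in Ltb spans positions -87 to -78 and is, on the opposite strand, the NF-kappaB word of the immunoglobulin kappa enhancer. No other member window held that word. In Tnf, TATAAA starts at position -29, and in Lta at -167. Promoter windows were found for 33 of the 43 members, 37 windows in all. All motifs were searched on both strands. The NF-kappaB consensus was found in 4 of 37 member windows (10.8%) and in 8.46% of 32851 windows of all genes. The word capitalised in Ltb, which the consensus includes, was found in 1 of 37 (2.70%) and in 0.155%. That 1 window is the one of Ltb shown above, so no excess is read from the 2.70%. TGACTCA was found in 7 of 37 member windows (18.9%) and 5.20% of all windows, and the 7 include 2 overlapping windows of Tnfsf13b. TATAAA was found in 16.2% of member windows and 13.6% of all, CCAAT in 16.2% and 37.4%, and TGACGTCA in 0 of 37 and 1.79%. These matches describe sequence only.

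Most of the family was detected, at modest levels. A mean of at least 1 CPM was reached by 36 of 43 members (83.7%), against 59.4% of 22005 nuclear protein-coding genes, and 10 CPM by 16 members (37.2%), against 35.8%. No member reached 100 CPM, a level that 5.89% of protein-coding genes reached. The family took 0.0577%, 0.0535% and 0.0538% of all counts in libraries 1, 2 and 3. Its 4 highest members by CPM, namely Tnfrsf1b, Tnfrsf13c, Cd27 and Ltb, held 38.5% ± 3.18 of the family's counts (SD, n = 3). Between genes, levels were compared as CPM per kilobase of exon, written RPKM below. The median RPKM was 2.67 over the family and 0.858 over protein-coding genes.

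By RPKM the order was led by Ltb at 29.0 ± 6.91 RPKM (SD, n = 3), inside the top 3.53% of 21839 protein-coding genes with an exon length. It was followed by the receptor for the B cell survival factor BAFF, Tnfrsf13c, at 24.5 ± 6.29 RPKM, the T cell costimulatory receptor Cd27 at 20.2 ± 2.55 RPKM, and Tnfrsf1b, the TNF receptor prominent on leukocytes, at 18.5 ± 5.91 RPKM. Fasl, Cd40lg, Tnfrsf1a, Tnfrsf14 and Fas lay between 14.2 and 11.9 RPKM. The ranges of the 3 libraries overlapped for all 42 pairs of neighbours in this order, and 2 of these pairs, Tnfrsf14 over Fas and Ngfr over Tnfsf13b, had the same order in each library. With overlapping ranges, single steps of the order are not resolved. Library 1 ranked Ltb first, and libraries 2 and 3 ranked Tnfrsf13c first.

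**Figure D1:**
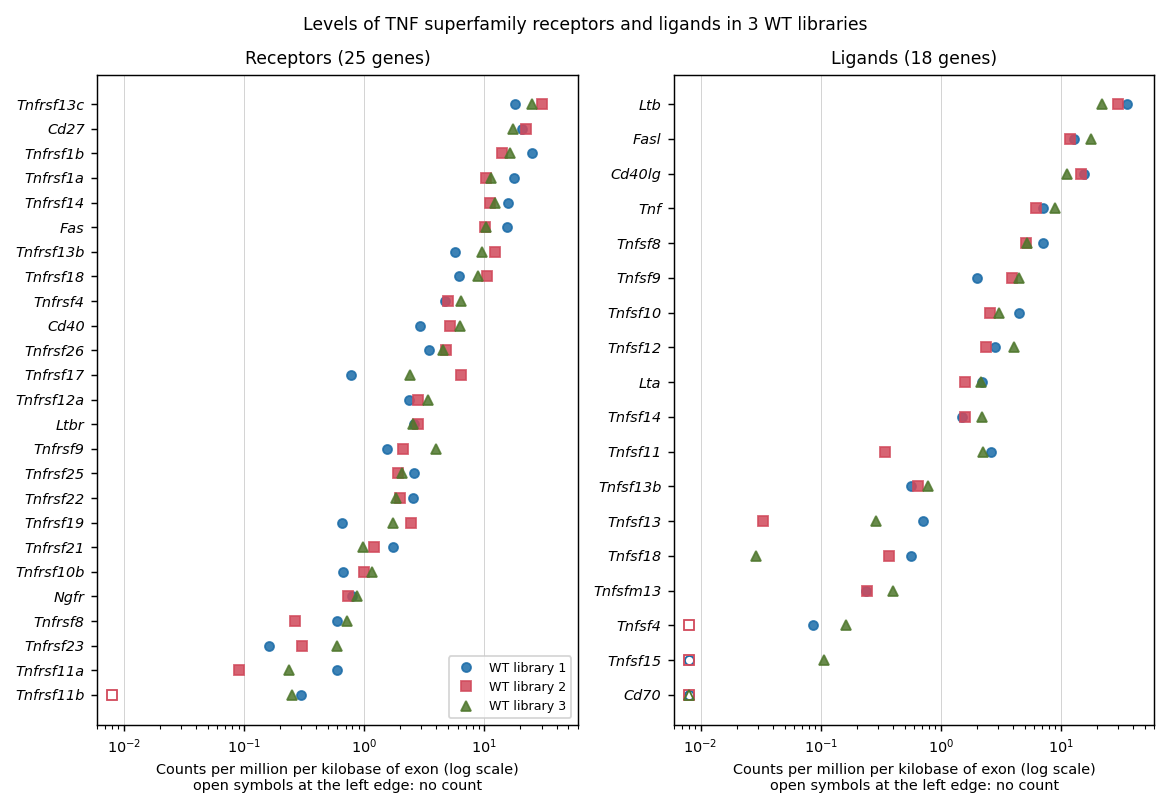
Level in RPKM on a log axis for 25 receptors (left) and 18 ligands (right), with a symbol for each of 3 WT libraries and open symbols at the left edge for a count of 0. Ltb, at 29.0 RPKM in the mean, and Tnfrsf13c, at 24.5, head the panels, and Cd70 has no count in any library.

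The TNF and lymphotoxin axis had the highest median of the 5 role groups, 3.26 ± 0.21 log2(RPKM + 0.1), against 1.39 ± 0.04 for the whole family, and 8 of its 8 members had a mean of at least 1 CPM. Ltb, the membrane anchor of the lymphotoxin heterotrimer (ENSMUSG00000024399, chromosome 17, 35194439 to 35196320), had 53.9, 45.1 and 33.1 CPM in WT libraries 1, 2 and 3. Tnf (ENSMUSG00000024401) had 11.6, 10.1 and 14.6 CPM. Lta, the secreted lymphotoxin subunit, had 3.07, 2.18 and 2.96 CPM. Ltb was thus above Tnf, and Tnf above Lta, in each library. As log2 ratios of RPKM the steps were 1.95 ± 0.58 for Ltb over Tnf and 1.85 ± 0.19 for Tnf over Lta.

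On the receptor side, Tnfrsf1b (ENSMUSG00000028599, chromosome 4, 145213463 to 145246870) had 96.3, 53.4 and 62.6 CPM, and Tnfrsf1a, the death domain receptor of TNF found on most cell types, 45.8, 26.8 and 29.7 CPM. Both were highest in library 1, with a shared pattern: the log2 ratio of Tnfrsf1b to Tnfrsf1a in RPKM was 0.48 ± 0.05. That pair was chosen after its values were seen. Tnfrsf14, the receptor of the ligand LIGHT, had 22.7, 15.9 and 17.8 CPM, and Tnfsf14, which encodes LIGHT, 2.75, 2.94 and 4.09 CPM. The lymphotoxin beta receptor, Ltbr, found on stromal and myeloid rather than lymphoid cells, had 6.14, 6.65 and 6.04 CPM. Ltbr did not vary beyond counting error (adjusted p = 0.424, chi-square test of homogeneity with Benjamini-Hochberg adjustment over all genes tested), and its ratio to Ltb was -3.37 ± 0.34 on the log2 scale.

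Of the B cell survival receptors, Tnfrsf13c and Tnfrsf13b lay well above their ligand BAFF, while Tnfrsf17 was uneven. Tnfrsf13c (ENSMUSG00000068105, chromosome 15, 82221744 to 82224339) had 36.8, 62.4 and 51.5 CPM. Tnfrsf13b, which encodes TACI, a receptor of both BAFF and APRIL, had 16.1, 35.2 and 27.0 CPM. Both were lowest in library 1 and highest in library 2. Tnfrsf17, the B cell maturation antigen of plasma cells, had 0.635, 5.18 and 1.96 CPM, from 12, 95 and 33 counts. It had the largest coefficient of variation, 90.2%, among members called as varying with a mean of at least 1 CPM. Summed markers of plasma cells were 197, 576 and 449 CPM in libraries 1, 2 and 3, in the same order as Tnfrsf17. Jchain, at 51.8, 354 and 243 CPM, made up most of the differences, and Mzb1 and Derl3 shared the order. Sdc1 and Xbp1 were lowest in library 3, and Prdm1 and Irf4 were highest there. Summed smooth muscle markers (141, 188 and 156 CPM) and fibroblast markers (401, 983 and 912 CPM) had the same order as Tnfrsf17 in CPM. With library sizes scaled by the TMM method, the smooth muscle sum was lowest in library 3 instead. Smtn was highest in library 1 (22.0, 12.3 and 13.2 CPM), and Tagln was lowest in library 3. Of the fibroblast markers, Pdgfra, Dcn, Dpt and Tcf21 were highest in library 3 in CPM. B cell markers were 1170, 1708 and 2192 CPM and were highest in library 3. The part of these cell types in the receptor values was not tested.

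The ligand BAFF, Tnfsf13b, had 3.86, 4.41 and 5.33 CPM, which did not differ beyond counting error (adjusted p = 0.471, chi-square test of homogeneity). In RPKM, Tnfrsf13c exceeded it by 4.99 ± 0.32 and Tnfrsf13b by 3.55 ± 0.48 on the log2 scale. For Tnfrsf17 the log2 ratio to Tnfsf13b was 0.41, 3.12 and 1.51 in libraries 1, 2 and 3, and without division by exon length its mean was -1.20. The ligand APRIL, Tnfsf13, had 22, 1 and 8 counts, which equal 1.16, 0.0545 and 0.474 CPM. Its level is uncertain, since 983 of its 1637 exon bases are also exons of the read-through gene Tnfsfm13, which had 10, 10 and 15 counts, and others overlap the antisense gene Tnfsf13os, which had 30, 29 and 8. Tnfsf12, which encodes TWEAK and had 81, 66 and 104 counts, shares 48.3% of its exon bases with Tnfsfm13 and is uncertain in the same way.

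Costimulatory members of T cells were uneven, with receptors mostly detected and several ligands near 0. Of 14 members, 10 had a mean of at least 1 CPM. Cd27 (ENSMUSG00000030336, chromosome 6, 125232622 to 125237010) had 48.3, 52.1 and 40.5 CPM, while its ligand Cd70 had no count in any library, a level of up to 0.178 CPM in library 3. With Cd70 set to 3 counts in each library, Cd27 was at least 82.3-fold higher per kilobase in every library. Cd40lg, the ligand that activated helper T cells show to B cells, had 19.3, 18.2 and 14.0 CPM, and its receptor Cd40, carried by B cells and other antigen-presenting cells, 10.0, 17.8 and 21.6 CPM. Cd40lg was lowest in library 3 and Cd40 lowest in library 1. In RPKM Cd40 lay below Cd40lg in each library, with a log2 ratio of -1.54 ± 0.77, but without division by exon length the ratio was -0.12.

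Levels of these members were set beside lymphocyte markers of the same library. Cd40lg amounted to 1.76%, 1.70% and 1.77% of the summed T cell markers, and Cd27 to 4.42%, 4.88% and 5.11%. Cd40 amounted to 0.855%, 1.04% and 0.984% of the summed B cell markers, and Tnfrsf13c to 3.14%, 3.66% and 2.35%. The largest part of the B cell sum was Ighm, at 511, 709 and 856 CPM. Steady shares were not particular to these genes: the TRAIL receptor Tnfrsf10b amounted to 0.312%, 0.316% and 0.287% of the B cell sum. Cd40lg, Cd27, Cd40 and Tnfrsf13c were picked for the percentages after their values were seen, and the percentages are a description.

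Among the other costimulatory members, Tnfrsf18, which encodes GITR of regulatory T cells, had 9.37, 16.0 and 13.5 CPM, and 27.2% of its exon bases overlap the antisense gene Gm16008, which had 52, 44 and 24 counts. The ligand of GITR, Tnfsf18, had 22, 14 and 1 counts, or 1.16, 0.763 and 0.0593 CPM. Tnfsf8, the CD30 ligand, had 27.2, 19.4 and 19.9 CPM, well above its receptor Tnfrsf8 at 2.06, 0.926 and 2.49 CPM, and the log2 ratio of Tnfrsf8 to Tnfsf8 in RPKM was -3.30 ± 0.57. The inducible costimulator Tnfrsf9 had 79, 105 and 181 counts and its ligand Tnfsf9 49, 92 and 98, both lowest in library 1, and 14.9% of the exon bases of Tnfsf9 overlap Gm11110 on the opposite strand. Tnfrsf4, which encodes OX40 of activated T cells, had a mean of 7.31 ± 1.22 CPM, whereas its ligand Tnfsf4 had 3, 0 and 5 counts. Tnfrsf25 had 5.03 ± 0.848 CPM, and its ligand Tnfsf15 had 0, 0 and 6 counts. Both receptors were above these ligands per kilobase in each library, but the size of the difference is not resolved at so few ligand counts.

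Death ligands and receptors were detected throughout, with 8 of 8 members at a mean of at least 1 CPM and 4 at 10 or more. Fasl (ENSMUSG00000000817, chromosome 1, 161780689 to 161788495), the death ligand of cytotoxic T and NK cells, had 472, 427 and 581 counts, a mean of 27.6 ± 6.01 CPM. It was highest in library 3. There the 7 NK cell markers summed to 713 CPM, against 309 and 438 CPM in libraries 1 and 2. B cell markers were also highest there (1170, 1708 and 2192 CPM in libraries 1, 2 and 3). T cell markers were lowest there (1093, 1068 and 792 CPM). Fasl was lowest in library 2, whereas the NK cell sum was lowest in library 1. The part of these cell types in the value was not tested. Fas, its receptor, had 31.8, 20.8 and 21.3 CPM and was highest in library 1, so the log2 ratio of Fas to Fasl was above 0 in library 1 and below 0 in libraries 2 and 3, with a mean of -0.26 ± 0.52 that lies within its SD of 0.

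Tnfsf10, which encodes the death ligand TRAIL, had 23.7, 13.5 and 16.2 CPM, and Tnfrsf10b, the mouse death receptor for TRAIL, 3.65, 5.39 and 6.28 CPM. The mouse genes Tnfrsf26, Tnfrsf22 and Tnfrsf23 lie together on chromosome 7, from 143607659 to 143685872, and Tnfrsf22 and Tnfrsf23 encode decoy receptors of TRAIL. Tnfrsf26 had 11.2, 15.5 and 14.5 CPM, and Tnfrsf22 and Tnfrsf23 had means of 8.94 ± 1.63 and 1.40 ± 0.885 CPM. Of the 50-base words of Tnfrsf22 and Tnfrsf23, 27.4% and 19.3% occur in transcripts of other genes, so their levels are uncertain singly. Tnfrsf21, a death domain receptor, had 135, 91 and 68 counts.

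Members known for bone and other tissues had the lowest mean of the group medians, 0.15 ± 0.63 log2(RPKM + 0.1), although in library 1 the B cell survival group was lower, at -0.19 against -0.15. Of the bone and tissue members, 6 of 7 had a mean of 1 CPM or more and 0 of 10 CPM or more. The osteoclast factor RANKL, Tnfsf11, had 111, 14 and 85 counts, and its receptor RANK, Tnfrsf11a, 67, 10 and 24 counts. Both were lowest in library 2. The decoy receptor osteoprotegerin, Tnfrsf11b, had 16, 0 and 12 counts, or 0.847, 0 and 0.711 CPM. Tnfrsf19, which encodes TROY, a receptor known from embryonic neural and epithelial tissue, had 3.12, 11.5 and 8.24 CPM. It was lowest in library 1 and highest in library 2. Summed markers of fibroblasts (401, 983 and 912 CPM) and plasma cells (197, 576 and 449 CPM) had that order too. So did those of smooth muscle (141, 188 and 156 CPM), but with TMM-scaled library sizes that sum was lowest in library 3. Within the smooth muscle list, Smtn was highest in library 1. B cell and NK cell sums were, like Tnfrsf19, lowest in library 1. The part of these cell types in the value of Tnfrsf19 was not tested. Tnfrsf12a, the TWEAK receptor, and Ngfr, the low-affinity neurotrophin receptor, had 5.52 ± 0.993 and 2.76 ± 0.258 CPM and did not vary beyond counting error (adjusted p = 0.290 and 0.824, chi-square test of homogeneity).

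Receptors were compared with ligands inside each library. The median receptor lay above the median ligand by 0.29, 0.80 and 0.59 log2(RPKM + 0.1) in libraries 1, 2 and 3, with a mean of 0.56 ± 0.25. A mean below 1 CPM was found for 1 of 25 receptors and 6 of 18 ligands. Over members with at least 1 CPM, a filter that removes more ligands than receptors, the difference was -0.14 ± 0.33, and without members whose exons overlap another gene it was 0.35 ± 0.38. An exact two-sided sign-flip test over 3 libraries cannot give a p below 0.25, so no test was made. Receptors held 69.8% of the family's counts and ligands 30.2%, each ± 2.13 (SD, n = 3).

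Of 25 pairs of a receptor with a ligand it is known to bind, the receptor was higher per kilobase in each library for 15, the ligand for 8, and 2 were mixed. Both receptors of TNF exceeded their ligand, with log2 ratios of 0.80 ± 0.48 for Tnfrsf1a and 1.29 ± 0.48 for Tnfrsf1b over Tnf. Tnfrsf14 exceeded Tnfsf14 by 2.83 ± 0.45. Ligands were the higher partner for Ltb and Ltbr, Cd40lg and Cd40, Tnfsf8 and Tnfrsf8, Tnfsf9 and Tnfrsf9, Tnfsf10 with Tnfrsf10b and Tnfrsf11b, and Tnfsf11 with Tnfrsf11a and Tnfrsf11b. Among those, Tnfrsf10b over Tnfsf10 was -1.74 ± 0.73. The mixed pairs were Fas and Fasl, and Tnfrsf12a and Tnfsf12. Over pairs with both members at 1 CPM or more, the receptor was higher in 9 of 17. Without members whose exons overlap another gene, it was higher in 11 of 19. Several members, such as Tnfsf13b and Tnfrsf1a, enter more than 1 pair, so the pairs are not independent and their counts are a description.

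**Figure D2:**
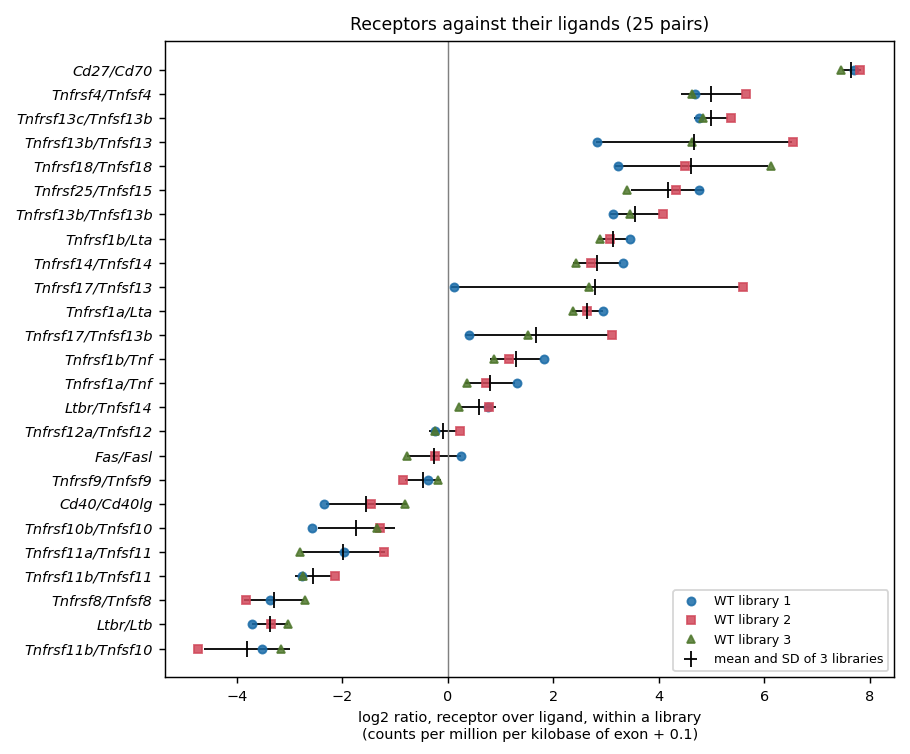
The log2 ratio of receptor over ligand in RPKM with 0.1 added, for 25 pairs, with a symbol for each WT library and a tick and bar for the mean and SD of 3 libraries. The pairs run without a gap across 0, where the bars of Fas/Fasl and Tnfrsf12a/Tnfsf12 lie. They reach down to Tnfrsf11b/Tnfsf10 and up to Cd27/Cd70, whose ratio is set by the 0.1 added. The mean for Tnfrsf11b/Tnfsf10, -3.81, also depends on the value added, and was -1.87 with 1 and -5.14 with 0.01. Tnfrsf4/Tnfsf4 and Tnfrsf25/Tnfsf15 moved with it too.

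Many members have a family neighbour in the genome. Counting members less than 100000 bases apart, 23 of 43 fell in 9 clusters, and 9 members lie on chromosome 4 and 8 on chromosome 17. Neighbours often differed in level. On chromosome 4, Tnfrsf1b lies 20266 bases from Tnfrsf8 and exceeded it by 4.92 ± 0.52 on the log2 scale of RPKM. On chromosome 6, Cd27 exceeded Ltbr by 2.87 ± 0.13, and Ltbr lay below Tnfrsf1a by a ratio of -2.22 ± 0.45. Tnfrsf4 and Tnfrsf18, 9551 bases apart on chromosome 4, were closer, with a log2 ratio of -0.64 ± 0.38 for Tnfrsf4 over Tnfrsf18.

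Variation between libraries beyond counting error was found for 32 of the 40 members with at least 10 counts (80.0%), at an adjusted p below 0.05 in a chi-square test of homogeneity. The background was high, at 73.1% of 15597 nuclear protein-coding genes and 70.0% of all 23317 genes tested, so the share of members lies near that of other genes. The 3 members under 10 counts were Tnfsf4, Tnfsf15 and Cd70. Of members with a mean of at least 10 CPM, 16 of 16 varied, against 79.0% of protein-coding genes at that level. The median coefficient of variation was 26.0% over the members tested and 21.9% over protein-coding genes tested. Reads without molecular identifiers are not independent molecules, so the test counts amplification noise as variation too.

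Of the 40 members tested, 16 varied and were highest in library 1, 7 in library 2, all of them receptors, and 9 in library 3. The same held for 29.8%, 22.2% and 21.0% of the protein-coding genes tested. Those highest in library 1 include Tnfrsf1b, Tnfrsf1a, Fas, Tnfrsf14, Tnfsf10, Tnfsf8 and Ltb. The smallest p was that of Tnfrsf1b (adjusted p = 5.7e-73, chi-square test of homogeneity), 1.86-fold higher in library 1 than in library 2 with library sizes scaled by the TMM method. This p also falls as counts rise, and Tnfrsf1b had the most counts of the family, 3855. The highest over the lowest library was 7.96-fold for Tnfsf11 and 7.88-fold for Tnfrsf17, from 210 and 140 counts. Library 1 also had the highest summed markers of airway epithelium (13800, 2798 and 7913 CPM in libraries 1, 2 and 3), alveolar epithelium (2244, 464 and 563 CPM), T cells (1093, 1068 and 792 CPM), myeloid cells (889, 281 and 368 CPM) and endothelium (785, 446 and 573 CPM). The airway sum was mostly Scgb1a1, at 13192, 2632 and 7641 CPM. The myeloid sum was mostly the lysozyme gene Lyz2, at 704, 189 and 235 CPM, while Itgam was lowest in library 1, with 18.9, 25.9 and 37.2 CPM. The T cell sums of libraries 1 and 2 were close. Of the T cell markers, Cd3d, Cd4, Cd8b1 and Lck were highest in library 2, with Cd4 at 125, 137 and 122 CPM. Pdpn of the alveolar list was highest in library 2. In CPM, Kdr of the endothelial list was highest in library 3. The part of these cell types in the members' values was not tested. Without library 1, 17 of 39 members varied and the share of all genes was 38.2%. The 14 calls lost there were those of Tnfrsf1b, Tnfrsf1a, Fas, Tnfrsf14, Tnfsf10, Tnfsf8, Cd40, Tnfrsf26, Tnfsf9, Tnfrsf10b, Tnfrsf21, Tnfrsf22, Tnfrsf23 and Tnfrsf25. Without library 2, 26 of 40 members varied and the share of all genes was 53.6%. The 6 calls lost there were those of Tnf, Tnfrsf26, Tnfsf11, Tnfsf12, Tnfrsf8 and Tnfrsf11b. Without library 3, 24 of 40 members varied and the share of all genes was 56.8%. The 8 calls lost there were those of Cd27, Cd40lg, Fasl, Tnf, Tnfsf12, Tnfsf18, Tnfrsf9 and Tnfrsf23. The 7 members Ltb, Tnfrsf13c, Tnfrsf13b, Tnfrsf17, Tnfrsf18, Tnfrsf19 and Tnfrsf11a varied whichever library was left out. Tnfsf13 had under 10 counts without library 1, so it was not tested there, and it varied in the other runs. The share of all genes that varied whichever library was left out was not computed, so the 7 are only a list.

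**Figure D3:**
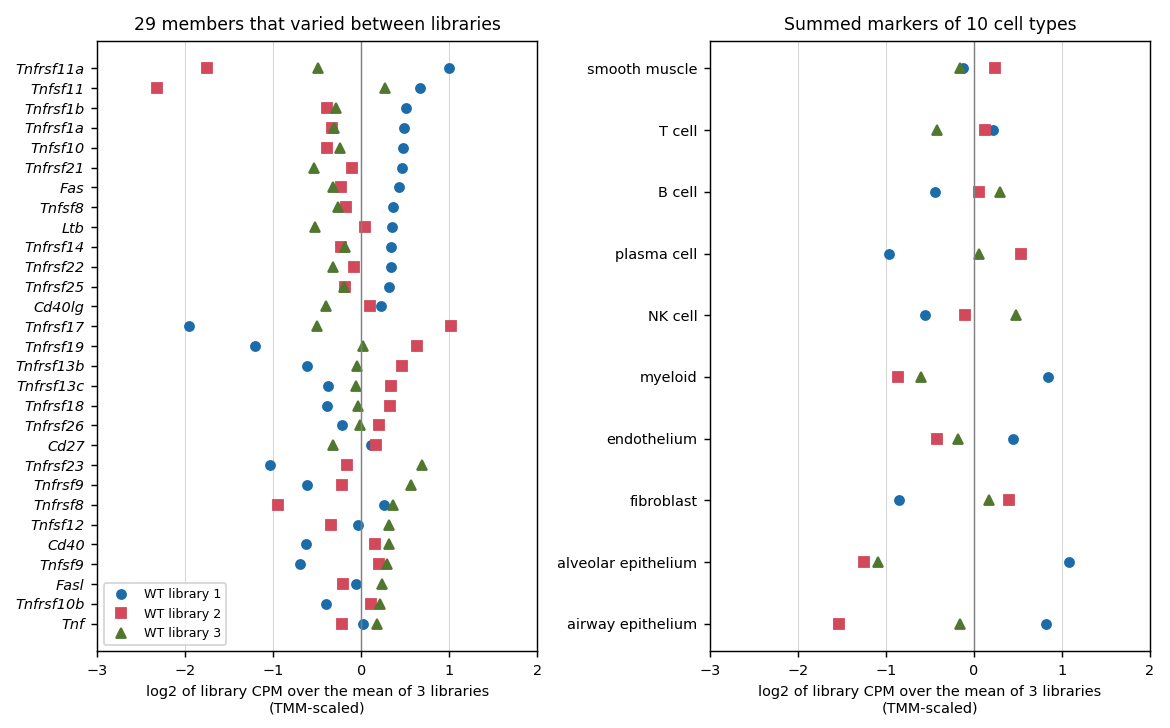
Log2 of the TMM-scaled level in each WT library over the mean of 3 libraries, for the 29 members called as varying with a mean of at least 1 CPM (left) and for summed markers of 10 cell types (right). Library 1 is highest for Tnfrsf1b, Tnfrsf1a and Fas and for myeloid, endothelial and alveolar epithelial markers, and lowest for Tnfrsf17 and for plasma cell markers.

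The median level of 49 pathway genes outside the family was 6.64 RPKM, against 2.67 RPKM over the family. Of these 49 genes, 39 had a mean of at least 10 CPM. Of 48 tested, 33 (68.8%) varied between libraries, against 73.1% of protein-coding genes. Among signalling adaptors and kinases, 15 of 16 reached 10 CPM, with a median of 3.06 ± 0.19 log2(RPKM + 0.1). The TAK1-binding adaptor Tab2 had 23.4 ± 1.02 RPKM, the adaptor Traf1 9.90 ± 0.486 RPKM and the kinase Ripk1 8.79 ± 1.07 RPKM. Tradd, the adaptor of Tnfrsf1a, had 4.02 ± 0.954 RPKM and was the only gene of this list below 10 CPM.

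Ubiquitin enzymes and their partners had the highest median, 3.54 ± 0.12, and 12 of 12 reached 10 CPM. The NF-kappaB brake A20, Tnfaip3, had 757, 799 and 850 CPM, or 111 ± 6.42 RPKM, against 29.0 RPKM for the highest member, Ltb, and did not vary beyond counting error (adjusted p = 0.108, chi-square test of homogeneity). Its partner Tnip1 had 38.4 ± 3.46 RPKM, the ubiquitin ligase Birc3 26.3 ± 4.07 RPKM and Tnip2 6.60 ± 1.58 RPKM. In the cell death arm 4 of 8 reached 10 CPM, with Cflar, the inhibitor of caspase-8, at 10.0 ± 0.755 RPKM and caspase-8 itself, Casp8, at 23.7 ± 3.62 RPKM. Without division by exon length their order was the reverse, at 127 ± 9.57 CPM for Cflar and 68.5 ± 10.5 CPM for Casp8. The necroptosis effector Mlkl had 1.23 ± 0.354 RPKM.

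Proteases and regulators of shedding had 7 of 8 genes at 10 CPM or more. Adam10 had 17.8 ± 0.426 RPKM, Adam17, the protease that releases TNF, 6.68 ± 0.680 RPKM, Furin 6.04 ± 0.571 RPKM and Rhbdf1 1.79 ± 0.369 RPKM. Of 5 related genes that the symbol rule leaves out, the receptor Relt had 3.38 ± 0.444 RPKM and the adaptor Edaradd 1.29 ± 0.526 RPKM. The ectodysplasin ligand Eda had 26, 28 and 27 counts. Its receptor Edar had 0, 3 and 5 counts.

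**Figure D4:**
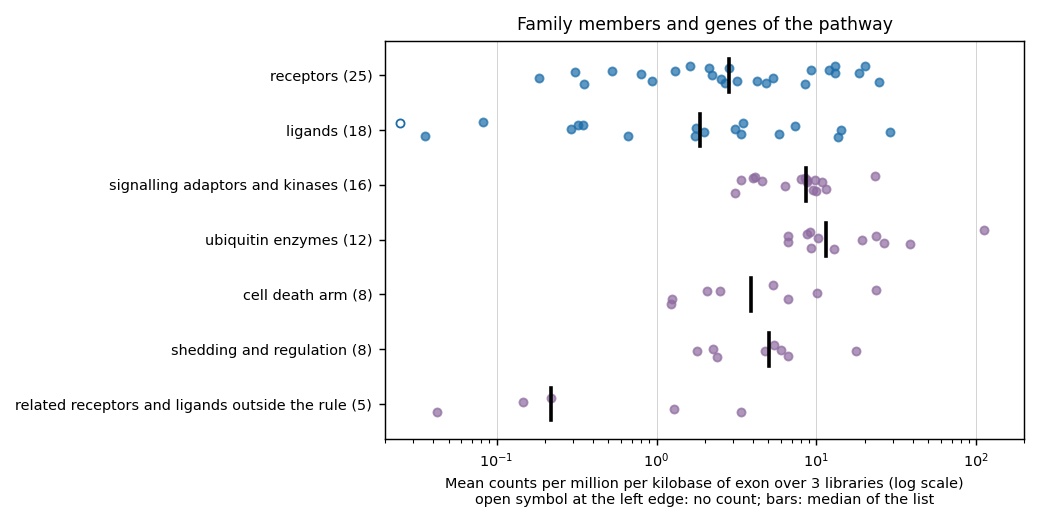
Mean level in RPKM over 3 WT libraries on a log axis, a point for each gene, for receptors, ligands and 5 lists of pathway genes, with a bar at each list's median and an open symbol at the left edge for Cd70, which had no count. Adaptors and ubiquitin enzymes lie to the right of the family medians, and Tnfaip3 is the point farthest right.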

How the data were processed

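The authors deposited 1 table of raw counts, whole numbers of reads for each gene in 3 libraries. Per the labels' protocols, RNA was isolated with a column kit with DNase, and total RNA libraries were made with a stranded kit. The tools named are featureCounts 1.6.3, STAR 2.6.1d, Trimmomatic 0.38, DESeq2 1.18.1 and FastQC, per the submitters' processing notes. Those notes list the human builds hg38 and GRCh38, whereas the gene IDs are mouse. Of 48349 IDs shared with GENCODE M21 (GRCm38), 48329 overlapped it in position, and 34 of 43 members had identical coordinates. No source used here gives how strands, or reads matching several genes, were counted. Columns named CTRL were matched to WT titles by number, WT being the only group.

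The members, lists and pairs were chosen with earlier results of these data known. CPM used library totals, and RPKM divided CPM by the union of M21 exons; log2 values add 0.1 RPKM. A chi-square test of homogeneity per gene used TMM library sizes from edgeR 4.0.16 (R 4.3.3), genes with at least 10 counts, and Benjamini-Hochberg adjustment over 23317 genes; scipy 1.17.1 was used. On simulated counts with counting error alone over 22815 genes, 37 of 50 genes changed 1.5-fold and 50 of 50 changed 4-fold were recovered, with 9 of 191 calls at unchanged genes. The changed genes were drawn from those with at least 100 counts, so recovery at fewer counts was not examined. Alternatives were other scalings (library totals, DESeq2 1.42.0 size factors, protein-coding totals), count minimums, pseudocounts, no division by length, filters on low or overlapping members, and leaving out each library. Values in every library are printed for members with a mean of at least 10 CPM, their partners in the pairs, the most variable called member and members with no count; other genes were chosen after their values were seen. Pathway lists show the 3 highest genes and the lowest by mean CPM, except 1 gene that is not reported here. All 3 count columns were used.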

Additional observations from a re-analysis of the deposited data

How the results depend on the processing

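The receptor median minus the ligand median, 0.56 ± 0.25, was 0.86 without division by exon length and 0.96 with the mean over members, 0.35 ± 0.38 without members whose exons overlap another gene, and reversed to -0.14 over members with a mean of at least 1 CPM. Leaving out each library gave 0.44 to 0.69. Pairs with the receptor higher in every library numbered 15 of 25, and 9 of 17 with both members at 1 CPM or more, where fewer pairs enter. Members varying between libraries numbered 32, and 17 to 26 when a library was left out, a test of 2 libraries. The share of all genes called was 70.0% over 3 libraries and 38.2% to 56.8% when a library was left out. Single ratios that changed sign were Fas to Fasl, which lay between -0.52 and 0.00089 when a library was left out and changed sign without library 3, and, without division by exon length, Tnfrsf9 to Tnfsf9 at 0.58, Tnfrsf12a to Tnfsf12 at 0.26 and Tnfrsf17 to Tnfsf13b at -1.20. The causes were not tested. With a pseudocount of 1, 14 of 25 ratios moved by more than their SD, and with 0.01, 5 did. With library totals the call of Tnfrsf25 was lost and one for Tnfrsf4 was gained (adjusted p = 0.0389, chi-square test of homogeneity). The counts of members at 1 CPM, 36, and of pathway genes at 10 CPM, 39, stayed within 1.5 times under each alternative run (31 to 38 and 39 to 44). No paired analysis was possible because there is no second group of samples to pair by replicate number; comparisons between genes are made within each library. Depth limits Cd70, Tnfsf4, Tnfsf15 and Tnfrsf11b, which had a count of 0 in at least 1 library.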
